A study of Mus musculus with 6 samples.

Results

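A set of 10 chemokine receptor genes was examined across 6 mouse RNA sequencing libraries. They were Ccr1, Ccr2, Ccrl2 and Cx3cr1, grouped here as receptors of myeloid cells, Ccr6, Ccr7, Ccr9, Cxcr3 and Cxcr5, grouped as receptors of lymphocytes, and Cxcr4, which both kinds of cell carry. The genes were chosen by name as chemokine receptors, and all 10 were found among the 21399 genes listed per library. Primary microglia from WT or KO mice of the CD45.2 strain went through oxygen and glucose deprivation, which mimics ischaemia in a dish, and were then reoxygenated together with peritoneal macrophages of CD45.1 mice. The groups were 3 libraries labelled WT and 3 libraries labelled KO, and both groups shared the deprivation, the reoxygenation and the added macrophages. The labels name neither the deleted gene nor the mouse age, the line, the length of each step or whether the animals were pooled. PPARα, a nuclear receptor that governs lipid metabolism, is named in the title of the series. The sorted cells are called microglia but given the CD45.1 mark of the added macrophages, and both cell types stand in the label of every library. No label tells whether replicates are different cultures or different mice, and the p-values therefore reflect spread among these libraries alone, which may be technical.

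Chemokine receptors are membrane proteins that sense gradients of small secreted proteins, the chemokines, and steer the migration of leukocytes through inhibitory G proteins. Myeloid cells use one set of receptors to reach inflamed tissue, and lymphocytes use another to find lymph nodes, follicles and mucosa. In the brain, Cx3cr1 is a hallmark of microglia and Ccr2 of the monocytes that enter after injury. Resident peritoneal cells include macrophages and many B cells, whose homing depends on Cxcr5.

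Transcript levels are given in FPKM, fragments per kilobase of transcript scaled to the library total. Between 34542822 and 38092819 reads per library were recovered from these values. Comparing levels of different genes depends on the transcript lengths used, which are not given. The recovered reads implied 4274 bases for Ccr6 and 2897 for Cxcr4, against 2320 and 1808 annotated exon bases. For Cxcr5 they implied 2657 against 3332 bases, for Ccr9 4424 against 10260, and for Ccr7 1989 against 1978. B cell markers summed to 4706 to 5392 FPKM in WT and 4137 to 4538 FPKM in KO over 10 genes, led by Cd79a and Cd79b. Peritoneal macrophage markers summed to 1653 to 4556 FPKM in WT and 6850 to 13393 FPKM in KO over 22 genes, led by Lyz2 and Thbs1. T and NK cell markers, led by Lck and Cd3g, summed to 153 to 232 FPKM over 11 genes and all 6 libraries, and neutrophil markers, led by Csf3r and S100a8, to 6.46 to 44.4 FPKM over 7. Mast cell markers, led by Tpsb2 and Cma1, ranged from 13.2 FPKM in WT replicate 1 to 565 FPKM in WT replicate 2. The 14 microglia markers were led by Csf1r, which macrophages also express. Of the genes that define microglia, Tmem119 ranged from 0.203 to 2.43 FPKM, P2ry12 reached at most 1.09 FPKM and Sall1 at most 0.152 FPKM, with 0 in 3 libraries. On the first principal component, which held 63.4% of the variance, WT replicate 2 scored 1.95, between the other WT libraries at -19.8 and -30.6 and the KO libraries at 6.92 to 29.0.

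The receptors fell into 3 levels. Cxcr5 was the highest at 129 FPKM on average over the 6 libraries, followed by Ccr7 at 116, Cxcr4 at 87.6 and Ccr6 at 83.5 FPKM. The order of these receptors may change with the transcript lengths used. In the middle stood Ccr1 at 47.3, Cxcr3 at 15.6 and Ccr9 at 11.8 FPKM. Ccrl2, Ccr2 and Cx3cr1 were low at 2.60, 2.24 and 1.55 FPKM. Most neighbours in this order kept their rank in all 6 libraries, but Cxcr4 exceeded Ccr6 in only 3 of 6 and Ccrl2 exceeded Ccr2 in only 3 of 6. Ccr6 exceeded Ccr1, and Ccr2 exceeded Cx3cr1, in 5 of 6 libraries. The 5 lymphocyte receptors made up 62.9% to 78.4% of the summed FPKM of the 10 genes, and the 4 myeloid receptors 4.97% to 16.9%.

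**Figure D1:**
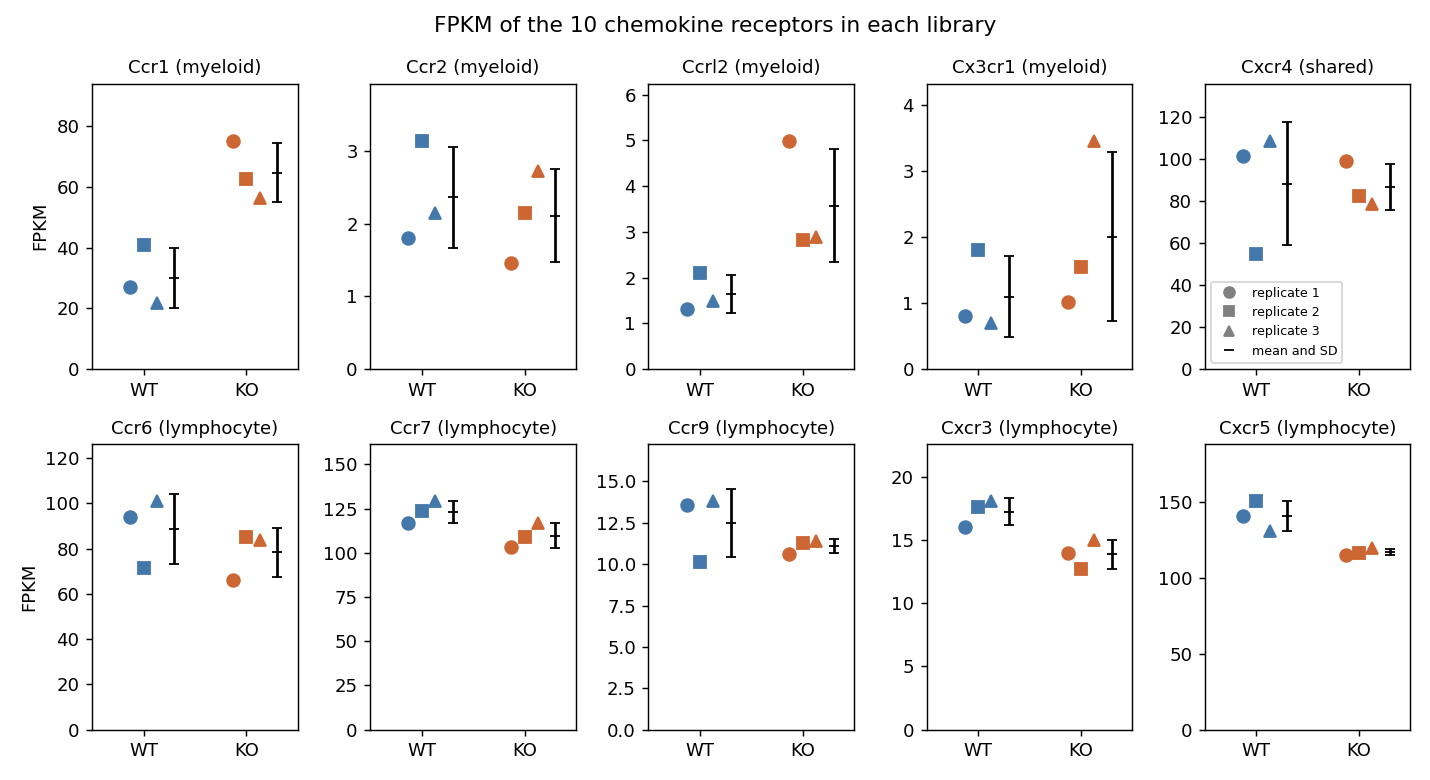
FPKM of each receptor (vertical axis, from 0) in the WT and KO libraries, with 1 point per library, the marker shape giving the replicate number and the bars the group mean and SD (n = 3). Ccr1 and Ccrl2 lie higher in every KO library than in any WT library, Cxcr3 and Cxcr5 lie lower, and the other 6 overlap.

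Of the myeloid receptors, Ccr1 differed most between the groups. Ccr1 binds several inflammatory CC chemokines and draws monocytes, macrophages and neutrophils into tissue. In the order of the replicate numbers, which is kept below, it stood at 27.1, 40.9 and 21.9 FPKM in WT and at 75.3, 62.6 and 56.3 FPKM in KO. Every KO library was above every WT library, and WT replicate 2 was the highest of its group. The WT mean was 30.0 ± 9.82 FPKM and the KO mean 64.7 ± 9.70 FPKM (SD, n = 3), 2.16 times as high. On log2(FPKM + 1) the difference was 1.12 (SE 0.22, 95% interval 0.61 to 1.63), which did not pass the test (adjusted p = 0.11 by limma over all 10732 genes tested). Leaving out WT replicate 2 changed the call, with a difference of 1.36 and a limma adjusted p of 0.0095.

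Ccrl2 encodes an atypical receptor that binds the chemoattractant chemerin without signalling and is induced in activated macrophages. Its values were 1.31, 2.10 and 1.48 FPKM in WT and 4.99, 2.82 and 2.89 FPKM in KO. The groups did not overlap, and KO replicate 1 was well above the other libraries. The means of 1.63 ± 0.417 and 3.57 ± 1.23 FPKM (SD, n = 3) stood at a ratio of 2.19, a difference of 0.78 on the log2 scale (SE 0.20, limma adjusted p = 0.14, not passing). Because 1 was added to each value, the log2 scale understates changes in a gene this low. With 107 to 431 reads per library, counting error was at most 9.67% of a value, smaller than the spread within either group.

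Ccr2, the receptor for the monocyte attractant Ccl2, showed no such pattern. It stood at 1.80, 3.15 and 2.15 FPKM in WT and 1.46, 2.15 and 2.73 FPKM in KO, so that the groups overlapped throughout. The difference was -0.11 (SE 0.20, 95% interval -0.58 to 0.35, limma adjusted p = 0.79), and its sign turned to 0.05 without WT replicate 2 or without KO replicate 1. In each WT library Ccr1 was 10.2 to 15.1 times as high as Ccr2, and in each KO library 20.6 to 51.7 times.

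Cx3cr1, the fractalkine receptor, was the lowest of the 10. It stood at 0.807, 1.79 and 0.689 FPKM in WT and at 1.01, 1.55 and 3.46 FPKM in KO. The groups overlapped, and KO replicate 3 stood above all other libraries. The difference of 0.47 (SE 0.31, limma adjusted p = 0.48) rested largely on that library and was 0.15 without it. Its annotated span overlaps 9 other genes, 3 of them protein-coding on the same strand, so reads may be shared. Beside it, the microglia marker sum was 141 to 226 FPKM in WT and 294 to 394 FPKM in KO, and Tmem119 was higher in every KO library than in any WT library (0.567 ± 0.427 against 2.27 ± 0.148 FPKM, SD, n = 3). The part of these markers in the Cx3cr1 values was not tested.

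For the 3 receptors under 5 FPKM, an exact two-sided permutation test on FPKM gave p = 0.1 for Ccrl2, 0.4 for Cx3cr1 and 0.6 for Ccr2, where 3 libraries against 3 cannot go below 0.1.

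Beside these values, the peritoneal macrophage markers were higher in the KO libraries for 20 of 21 genes tested (median log2 difference 1.70, against -0.06 over all genes tested), without overlap between the groups for 19 of them. F5, a coagulation factor, was the 1 marker that passed, with a log2 difference of 2.02 (limma adjusted p = 0.0053). The summed macrophage markers put the libraries in the same order as the summed myeloid receptors, which ran from 26.2 to 47.9 FPKM in WT and from 65.3 to 82.8 FPKM in KO. The summed neutrophil markers, at 6.46 to 21.9 FPKM in WT and 29.7 to 44.4 FPKM in KO, also kept the groups apart. However, 5 of these 7 genes stayed under 1 FPKM in every library, and Csf3r alone made up most of each sum. Csf3r stood at 5.29 to 13.5 FPKM in WT and 21.3 to 35.2 FPKM in KO. For S100a8 the ranges nearly met, at 0.733 to 7.58 FPKM in WT and 7.83 to 8.44 FPKM in KO. Relative to the mean log2 level of the 21 macrophage markers, Ccr1 was lower in every KO library than in any WT library, with means of 0.45 ± 0.11 for WT and 0.07 ± 0.25 for KO (SD, n = 3). Ccrl2, relative to the same mean, stood at -3.07 ± 0.39 in WT and -3.80 ± 0.16 in KO, again without overlap. The added 1 shrinks changes in so low a gene more than in most of the markers, so the size of this shift depends on the scale. The shift was computed only with 1 added, and whether it holds on another scale was not tested. The log2 difference of Ccrl2 itself was 0.78 with 1 added and 1.06 with 0.1 added. The monocyte marker sum was 365 to 385 FPKM in WT and 379 to 399 FPKM in KO, with Plac8 the highest of these genes. More cells of a type and more RNA per cell cannot be told apart in such bulk libraries, and the part of these markers in the receptor values was not tested.

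**Figure D2:**
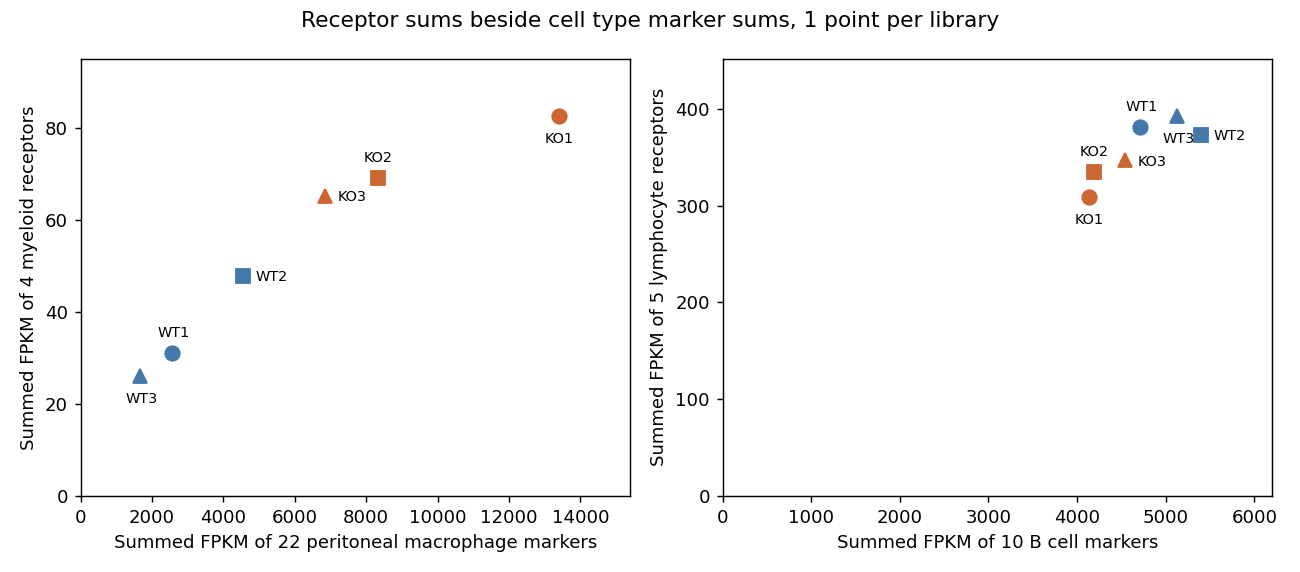
Summed FPKM of the 4 myeloid receptors against the summed FPKM of 22 peritoneal macrophage markers (left), and of the 5 lymphocyte receptors against 10 B cell markers (right), with 1 labelled point per library. On the left all KO libraries lie above and to the right of the WT libraries; on the right they lie below and to the left.

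All 5 lymphocyte receptors had negative differences, where 64.6% of all genes tested were negative and 35.4% positive. Their log2 differences lay between -0.30 and -0.15 with a median of -0.17, and none passed the test. Over all genes tested 0.028% were called higher and 0% lower by limma at an adjusted p under 0.05, and 8.86% were higher and 8.21% lower at an unadjusted p under 0.05. Of the 10 receptors 0 passed the adjusted threshold, also with voom on the recovered reads, while 2 were higher and 2 lower at the unadjusted one. Groups that did not overlap were seen for 9.75% of all genes tested with KO higher and 15.2% with KO lower, 24.9% in all. Among the receptors this held for Ccr1 and Ccrl2 on the higher side and for Cxcr3 and Cxcr5 on the lower.

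Cxcr5 guides B cells and follicular helper T cells toward Cxcl13 in follicles and body cavities. It stood at 141, 150.3 and 131 FPKM in WT and 115, 117 and 119 FPKM in KO. The KO libraries lay close together and all below the lowest WT library. The means were 141 ± 9.62 and 117 ± 2.17 FPKM (SD, n = 3), a KO to WT ratio of 0.832, with a log2 difference of -0.26 (SE 0.08, 95% interval -0.46 to -0.07, limma adjusted p = 0.19).

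Cxcr3, the receptor of activated T and NK cells for interferon-induced chemokines, was measured at 16.1, 17.6 and 18.1 FPKM in WT and at 13.9, 12.7 and 15.0 FPKM in KO. The groups were again separate, although the gap between the nearest libraries was small. The means of 17.2 ± 1.05 and 13.9 ± 1.16 FPKM (SD, n = 3) differed by -0.30 on the log2 scale (SE 0.09, limma adjusted p = 0.19).

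Ccr7, which leads lymphocytes and mature dendritic cells into lymph nodes, stood at 116.7, 124 and 129 FPKM in WT and 103, 109 and 117.0 FPKM in KO. Only KO replicate 3 and WT replicate 1 overlapped, by less than 1 FPKM, and the log2 difference was -0.16 (SE 0.09, limma adjusted p = 0.38). Ccr6, the Ccl20 receptor of B cells and some T cells, ranged from 71.4 to 101 FPKM in WT and from 66.0 to 85.1 FPKM in KO. Ccr9, which directs T cells and plasmacytoid dendritic cells to the gut, ranged from 10.1 to 13.8 FPKM in WT and from 10.6 to 11.4 FPKM in KO. Both had overlapping groups, with limma adjusted p-values of 0.60 and 0.57.

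The lymphocyte receptors did not vary together within the WT group. WT replicate 2 had the lowest Ccr6 and Ccr9 of its group (71.4 and 10.1 FPKM) but its highest Cxcr5 (150.3 FPKM). The ratio of Ccr6 to Cxcr5 was 0.475 in that library and 0.574 to 0.770 in the other 5. Cxcr4, which binds Cxcl12 and holds leukocytes in marrow and tissue, followed Ccr6 and Ccr9 in this respect. It stood at 102, 54.6 and 109 FPKM in WT and at 99.1, 82.5 and 78.9 FPKM in KO, so that WT replicate 2 was the lowest of all 6 libraries and the other WT libraries the highest. The KO mean was slightly lower in FPKM (86.8 against 88.4 FPKM), while the log2 difference was 0.03. That difference (SE 0.25, 95% interval -0.56 to 0.62, limma adjusted p = 0.96) turned to -0.28 without that library. It also turned negative, to -0.049 and -0.0225, when totals were rescaled without mitochondrial and ribosomal protein genes and under quantile normalization.

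B cell markers were lower in KO for 10 of 10 genes (median log2 difference -0.23), and T and NK cell markers for 9 of 9 tested (median -0.36). None of these 19 genes passed the test. Relative to the mean log2 level of the B cell markers, Cxcr5 averaged -0.11 ± 0.14 for WT and -0.15 ± 0.10 for KO (SD, n = 3) and Ccr6 at -0.78 ± 0.27 and -0.73 ± 0.09, with overlapping groups for both. Ccr7 on this scale was -0.30 ± 0.0035 in WT and -0.24 ± 0.05 in KO, without overlap but with a difference of only 0.05. Cxcr3 relative to the T and NK cell markers was -0.10 ± 0.08 in WT and -0.07 ± 0.17 in KO, also overlapping. The part of these markers in the lymphocyte receptor values was not tested.

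**Figure D3:**
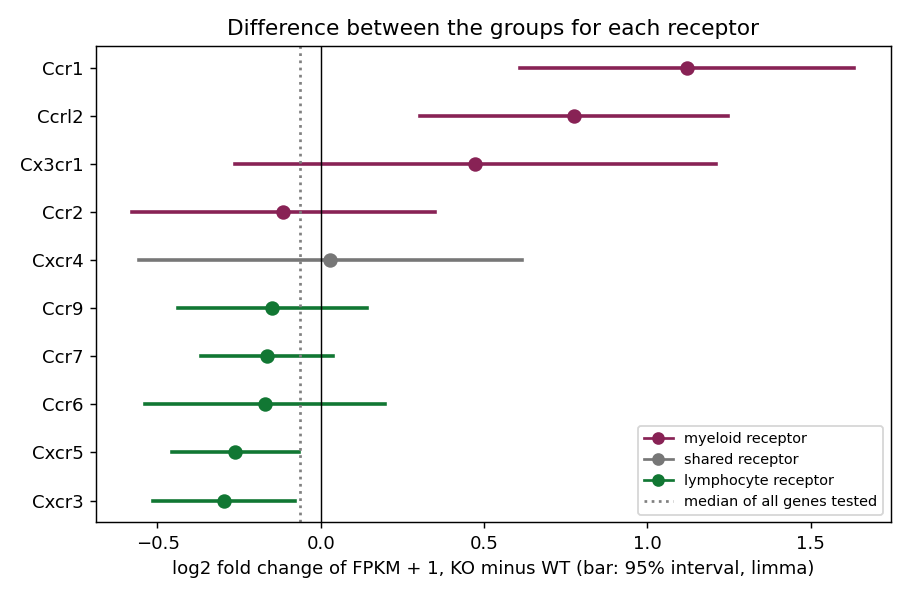
Log2 difference of FPKM + 1 between KO and WT for each receptor (horizontal axis), with points for the limma estimate, bars for its 95% interval and colour for the receptor group; the dotted line is the median of all genes tested. The myeloid receptors Ccr1 and Ccrl2 lie farthest to the right and all 5 lymphocyte receptors lie left of 0, none passing the adjusted test.

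Set against each other within a library, the mean log2(FPKM + 1) of the 4 myeloid receptors minus that of the 5 lymphocyte receptors was -3.62, -2.98 and -3.72 for WT against -2.63, -2.76 and -2.60 for KO. The KO libraries lay close together and all above the WT libraries, of which WT replicate 2 was the nearest. WT averaged -3.44 ± 0.40 and KO -2.66 ± 0.09 (SD, n = 3), and their difference of 0.77 is given as a description. In summed FPKM the myeloid share of the 10 receptors was 4.97% to 10.1% in WT and 13.3% to 16.9% in KO, and Ccr1 alone made up 83.5% to 91.0% of it.

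Of the 10 genes, 6 lie on mouse chromosome 9 in mm10, where many chemokine receptor genes stand side by side. Ccr9 (123678439 to 123784330, plus strand), Ccr1 (123962124 to 123968692, minus strand) and Ccr2 (124101950 to 124113557, plus strand) belong to 1 dense cluster with Cxcr6, Xcr1, Ccr1l1 and Ccr3. Ccrl2 (111054486 to 111057519), Cx3cr1 (119901616 to 120069879) and Cxcr5 (44511787 to 44561877) lie apart from it on the minus strand. Within the cluster the levels differed widely between neighbours. Ccr1 stood beside Ccr1l1, at or below 0.0604 FPKM, and Xcr1, at or below 0.0293 FPKM in every library. Ccr3, the eotaxin receptor of eosinophils, stood between 0.0993 and 0.453 FPKM. Ccr1, Ccr2 and Ccr3 have similar coding sequences, so reads shared between them are uncertain. Ccr9 overlaps 6 annotated genes, Cxcr5 overlaps Bcl9l on the opposite strand, and Ccr1, Ccr2 and Ccrl2 overlap none.

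**Figure D4:**
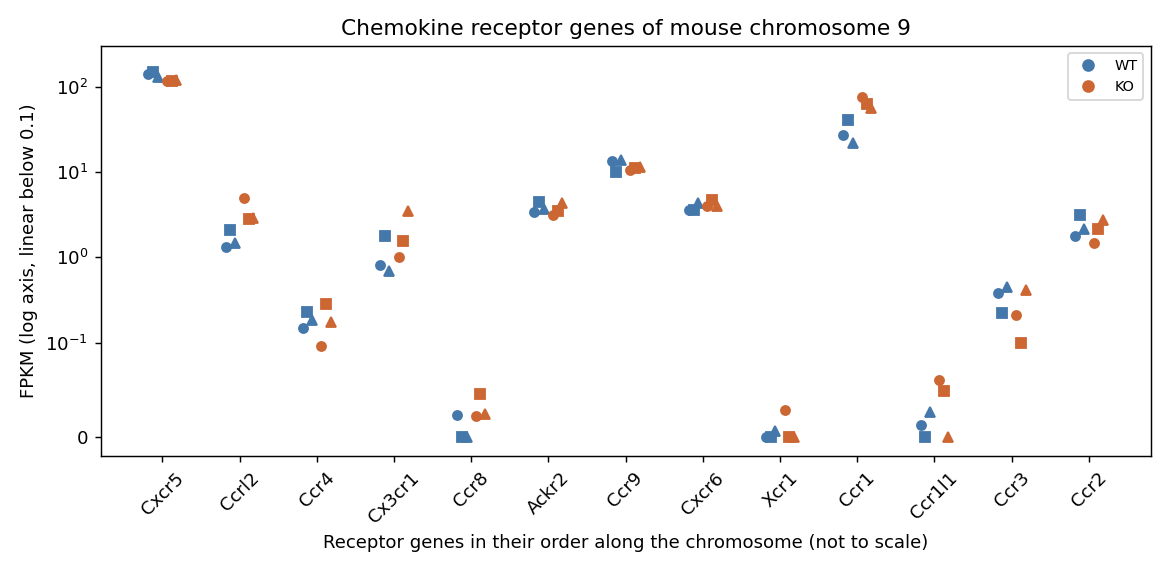
FPKM (vertical log axis, linear below 0.1) of 13 chemokine receptor genes of chromosome 9 in their order along the chromosome (horizontal axis, not to scale), with 1 point per library, colour for the group and marker shape for the replicate number. Ccr1 stands far above its neighbours, and Ccr1 and Ccrl2 are those whose KO points all lie above the WT points among genes above 1 FPKM.

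Elsewhere, Cxcr4 lies on chromosome 1 (128588199 to 128592293, minus strand), Ccr7 on chromosome 11 (99144196 to 99155077, minus strand), Ccr6 on chromosome 17 (8236043 to 8257141, plus strand) and Cxcr3 on chromosome X (101731535 to 101734269, minus strand). None of these 4 overlaps another annotated gene.

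The 250 bases upstream of a RefSeq start in GRCm38.p6, the assembly of mm10, are shown for Ccr1 and Ccrl2, whose KO libraries were all higher, for Cxcr3, whose KO libraries were all lower, and for Ccr2, the Ccr1 relative whose groups overlapped. Promoter entries matched 8 of the 10 receptors. All sequences are the gene's own strand, 5′ to 3′, and end at the base before the start. Capitals mark matches, on either strand, to the core of the myeloid factor PU.1 (GAGGAA), a PPAR half-site (AGGTCA), an AP-1 site (TGANTCA) or the octamer of B cell promoters (ATGCAAAT). For Ccrl2 the most upstream of 3 RefSeq starts is shown. RefSeq starts can differ from the ends of the annotated spans given above. Most of the Ccr2 window and part of the Cxcr3 window lie inside the annotated span of the gene.
Ccr1, chr9:123968693-123968942, minus strand: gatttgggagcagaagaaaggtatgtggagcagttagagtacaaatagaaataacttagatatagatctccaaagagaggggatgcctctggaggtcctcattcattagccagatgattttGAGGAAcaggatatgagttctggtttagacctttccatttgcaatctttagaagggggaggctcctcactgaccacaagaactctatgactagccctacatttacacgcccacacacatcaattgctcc
Ccrl2, chr9:111057519-111057768, minus strand: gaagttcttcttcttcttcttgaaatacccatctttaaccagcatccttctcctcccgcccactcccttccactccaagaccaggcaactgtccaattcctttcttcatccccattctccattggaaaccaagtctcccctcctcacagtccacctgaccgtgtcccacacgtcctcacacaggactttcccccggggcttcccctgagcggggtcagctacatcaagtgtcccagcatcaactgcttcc
Ccr2, chr9:124101933-124102182, plus strand: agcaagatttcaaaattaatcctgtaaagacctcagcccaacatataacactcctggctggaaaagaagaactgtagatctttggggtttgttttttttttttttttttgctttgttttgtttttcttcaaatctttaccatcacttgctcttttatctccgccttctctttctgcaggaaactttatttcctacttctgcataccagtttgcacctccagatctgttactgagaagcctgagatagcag
Cxcr3, chrX:101734148-101734397, minus strand: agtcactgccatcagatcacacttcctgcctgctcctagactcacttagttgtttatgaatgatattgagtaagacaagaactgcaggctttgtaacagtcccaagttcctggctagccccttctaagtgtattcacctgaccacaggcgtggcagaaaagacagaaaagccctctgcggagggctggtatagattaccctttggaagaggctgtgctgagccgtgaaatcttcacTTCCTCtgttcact

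The Ccr1 window held 1 match, a GAGGAA from 129 to 124 bases upstream. The Cxcr3 window held 1 match to the same letters on the other strand, 14 to 9 bases upstream of the RefSeq start. That match lies inside the annotated span of Cxcr3. No letters of these 4 motifs were found in the Ccrl2 and Ccr2 windows. GAGGAA occurred in 23.3% of 32851 upstream windows of the same length, AGGTCA in 14.0%, TGANTCA in 6.75% and ATGCAAAT in 1.6%. Of the windows not shown, the first Ccr6 start held 3 matches, 1 each to the PU.1 core, the PPAR half-site and the octamer, all on the minus strand, and those of Cx3cr1, Cxcr4 and Ccr9 held 0.

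Of 13 other chemokine receptors listed, 5 reached the filter of 1 FPKM, 3 with positive and 2 with negative differences, and 0 passed the test. Ackr3, an atypical receptor that scavenges Cxcl12, stood at 2.38, 3.30 and 1.39 FPKM in WT and 5.49, 5.51 and 7.75 FPKM in KO, and its groups did not overlap (log2 difference 1.14, limma adjusted p = 0.11). Cxcr6, the Cxcl16 receptor of T cells, stood at 3.82 ± 0.401 and 4.22 ± 0.411 FPKM (SD, n = 3), with overlapping groups. Cxcr2, the main neutrophil receptor, reached at most 0.0260 FPKM.

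Among 16 ligands of these receptors, 8 reached the filter, 0 passed and none had separate groups. On the log2(FPKM + 1) scale all 8 estimates were positive (median 0.36), but the mean FPKM was lower in KO for 2 of them. Ccl2, a ligand of Ccr2, averaged 29.1 ± 27.5 FPKM for WT against 23.6 ± 9.33 FPKM for KO, and Ccl7, another, 11.7 ± 14.5 against 6.39 ± 1.53 FPKM (SD, n = 3). Cxcl13, the ligand of Cxcr5, stood at 66.8, 321 and 34.7 FPKM in WT and 466, 306 and 230 FPKM in KO (log2 difference 1.80, limma adjusted p = 0.27). The overlap came from WT replicate 2, whose Cxcl13 was above that of KO replicates 2 and 3. Ccl9 and Ccl6, ligands of Ccr1 in the mouse, were high in KO replicate 1 at 72.8 and 115 FPKM and stood at 7.09 to 20.2 and 12.6 to 22.5 FPKM in the other 5 libraries. Ligands of several lymphocyte receptors were scarcely present, with Ccl20 at or below 0.0343 FPKM, Cxcl9 at or below 0.0538 FPKM and Ccl25, for Ccr9, at or below 1.09 FPKM. Cxcl12, for Cxcr4, reached at most 0.385 FPKM and Cx3cl1, for Cx3cr1, at most 0.997 FPKM.

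Genes that couple the receptors to migration went both ways. Of 31 tested, 17 were positive and 14 negative (median 0.09), and 0 passed. Rgs2 and Rgs10, which shorten G protein signals, had WT means of 23.7 ± 1.78 and 30.3 ± 2.88 FPKM against KO means of 38.6 ± 4.24 and 46.4 ± 7.85 FPKM (SD, n = 3), each without overlap and with limma adjusted p-values of 0.079 and 0.12. Gnai3, an inhibitory G protein subunit, stood at 49.7 ± 2.88 and 60.8 ± 3.16 FPKM, also without overlap.

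Of 11 other chemoattractant receptors tested, 7 were positive and 4 negative (median 0.91), 6 were higher without overlap and 1 lower without overlap, and 0 passed. Cmklr1, the signalling receptor for chemerin, stood at 8.29, 12.6 and 4.19 FPKM in WT and 30.3, 24.0 and 20.1 FPKM in KO. C3ar1 and C5ar1, the receptors for complement fragments, had WT means of 13.2 ± 7.02 and 13.5 ± 8.14 FPKM against KO means of 39.4 ± 10.8 and 37.7 ± 8.54 FPKM (SD, n = 3). The limma adjusted p-values of these 3 genes were 0.11, 0.11 and 0.13.

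Genes with a profile most like that of a receptor were ranked by the root-mean-square difference between log2(FPKM + 1) profiles over the 6 libraries, each centred on its mean, among genes of at least 5 FPKM. Nearest to Ccr1 were Maged1 and Dse, at 0.06 and 0.08. Ccrl2 was nearest to Tmem176b and Dusp1 (0.05 and 0.07), and Ccr2 to Stac2 and Fgd2 (0.08 and 0.09). Cx3cr1 and Cxcr4 had no close match, with 0.23 and 0.29 for Rgs1 and Nr4a1 and 0.13 and 0.14 for Zfp652 and Ttc39b. The lymphocyte receptors, which varied little, had matches at 0.01 to 0.03. These were Acrbp and Thoc1 for Cxcr5, Ccdc69 and Cd52 for Cxcr3, Gtf2a2 and Trit1 for Ccr7, Itsn2 and Setd5 for Ccr6, and Kdm3a and Entpd5 for Ccr9.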

How the data were processed

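Per the labels' protocols, TRIzol was used for RNA and the VAHTS Universal V6 kit for sequencing libraries. The deposited values are FPKM computed by the authors, 1 table of 21399 symbols per library, on the mm10 build per the submitters' processing notes. Aligner, counter, annotation and strand setting: not given in the sources used here. Therefore reads of overlapping genes cannot be told apart.

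Groups came from the sample titles. The receptors, gene lists and tests were chosen with earlier results of these data known. The 10732 genes averaging 1 FPKM or more were tested on log2(FPKM + 1), unscaled, using R 4.3.3 and limma 3.58.1 (trended eBayes, Benjamini-Hochberg adjustment at 0.05). All 10 receptors passed this filter. The named genes were the 10 receptors, the 2 nearest profiles of each, the 3 smallest p of each pathway list and the 2 highest genes of each marker list. Some genes this rule names are not reported here. Lists were described, not tested.

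Whole reads were recovered from the steps of the FPKM values: 100.0% of 19331 genes with values in at least 2 libraries came out whole within 0.005 reads in every library. Where a gene had values in only a few libraries, few ratios had to come out whole. Such a fit is easily found, so this share says little about the reads of those genes. If every count of a gene shares a divisor, the recovered reads are too low by it. The scripts were tested on simulated data. Positions came from GENCODE M21, an mm10 annotation, and upstream sequences from RefSeq (GRCm38.p6). Alternatives were other pseudocounts (0.1 and 5), filters (none and 5 FPKM), scalings, the replicate block, voom on the recovered reads and leaving out each library. Receptors under 5 FPKM also got an exact permutation test. Python 3.11.15, pandas 2.3.3, numpy 2.4.6 and matplotlib 3.10.9 were used.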

Additional observations from a re-analysis of the deposited data

How the results depend on the processing

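Across 15 alternatives, 140 of 147 receptor values kept their direction and their side of the threshold. The 5 lymphocyte receptors stayed negative and uncalled under all of theirs, and Ccrl2 and Cx3cr1 positive and uncalled. Leaving out single libraries gave 0.93 to 1.36 for Ccr1, called only without WT replicate 2 (adjusted p from 0.0095 to 0.36 over all alternatives), -0.26 to 0.0455 for Ccr2 (positive without WT replicate 2 or KO replicate 1) and -0.28 to 0.21 for Cxcr4. Cxcr4 also reversed to -0.049 with totals rescaled without mitochondrial and ribosomal protein genes and to -0.0225 with quantile normalization. The receptors called by limma numbered 0, and 0 to 1 with a library left out. The count of 3 genes called over all genes was 6 with a pseudocount of 5, 0 with no filter (1268 higher and 1380 lower at an unadjusted p under 0.05), 6 with the rescaled totals, 5 with voom and 0 to 552 with a library left out: none when WT replicate 1 was dropped, 552 when WT replicate 2 was, and 1 when either KO replicate 1 or KO replicate 2 was. The myeloid minus lymphocyte difference of 0.77 ranged from 0.57 to 1.00 over 11 alternatives. The filter at 5 FPKM gave no value for Ccr2, Ccrl2 and Cx3cr1. The cause of these changes was not tested.

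With the replicate number as a block, 11 genes and 0 receptors were called. Same-numbered libraries had deviations from their group means that correlated at -0.21, -0.38 and 0.27, so the numbers were not taken to pair the samples. Counting error limits Cx3cr1 (10.5% at 90 reads) and Ccrl2 most.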
